A study of Rattus norvegicus with 13 samples.

Results

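The antioxidant and NRF2 genes are a named set of 34 rat genes. They encode the transcription factor NRF2 (Nfe2l2), its inhibitor KEAP1, the haem oxygenases, NQO1, and enzymes of the glutathione, thioredoxin, peroxiredoxin, superoxide dismutase and catalase systems. Each was read from the probe set, a group of array probes combined to 1 value, that carried its symbol alone, and from the brightest one where a gene had several. On this array 33 of the 34 genes had such a probe set, out of 14506 genes in all, and Mgst3 was not analysed here.

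The samples were whole brains, minus the cerebellum, of inbred Fischer F344 rats, all male and aged 15 months. In 6 of them the mother ate a high fructose diet, and in 7 a control diet, from day 1 of gestation and through lactation. Pups of both groups were weaned on day 20 and were then kept on chow, so the maternal diet is the only difference that the labels give between the groups. Each sample was hybridised to 1 Affymetrix array and its signal is given on the log2 scale. The labels name no litter and do not say that each array was a separate animal, so p-values measure only the spread between these samples, which may be technical.

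In unstressed cells KEAP1 holds NRF2 in the cytoplasm and passes it to an ubiquitin ligase for degradation. Oxidants and electrophiles modify cysteines of KEAP1, NRF2 then builds up, pairs with a small MAF protein and binds antioxidant response elements in the promoters of genes for glutathione synthesis, thioredoxin recycling and quinone reduction. Because much of this control acts on the protein, the level of the Nfe2l2 transcript is not a measure of NRF2 activity. In the brain the pathway is known to be more active in astrocytes than in neurons, and astrocytes supply neurons with precursors of glutathione.

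To show the sequence through which NRF2 is known to act, the promoters of the members were searched for the core of the antioxidant response element, TGACNNNGC, on both strands. Windows of 300 bases, 250 before and 50 after the annotated start, came from RefSeq for the GRCr8 build and were given for 29 of the 33 measured members, with none for Hmox1, Gsr, Prdx6 and Sod3. The core was present in 9 of the 29 (31.0%), namely Sod2, Gstp1, Prdx5, Gclm, Nfe2l2, Prdx1, Txnrd1, Hmox2 and Prdx4, against 13.1% of all 27457 genes with such a window. Counted by promoter, since some genes had several, it was present in 9 of 33 member promoters (27.3%) and in 12.1% of all 33469. The windows around 5 of the matches are shown here 5′ to 3′ on the strand of the gene, with the match in capitals.
Prdx1 (chr5:135383759-135383791, plus strand): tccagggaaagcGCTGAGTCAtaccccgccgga
Gclm (chr2:213031951-213031983, plus strand): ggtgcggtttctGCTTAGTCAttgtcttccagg
Txnrd1 (chr7:22755962-22755994, minus strand): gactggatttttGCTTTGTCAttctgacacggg
Gstp1 (chr1:210769746-210769778, minus strand): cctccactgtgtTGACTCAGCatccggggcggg
Nfe2l2 (chr3:81028950-81028973, minus strand): ccgactagccatTGACGCCGCctc
In Prdx1, Gclm and Txnrd1 the core read on the opposite strand. The base of the match farthest from the start lay 135, 172 and 78 bases before it. In Gstp1 the core read on the strand of the gene, and that base lay 61 bases before the start. In Nfe2l2 the core lay after the start. For Txnrd1, Gstp1 and Nfe2l2 the start used lay inside the annotated span of the gene and not at its outer end. A match of letters is a description and no evidence of binding.

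The whole window of Prdx1, the member whose signal followed that of Nfe2l2 most closely below, spanned chr5:135383656-135383955.
Prdx1 promoter: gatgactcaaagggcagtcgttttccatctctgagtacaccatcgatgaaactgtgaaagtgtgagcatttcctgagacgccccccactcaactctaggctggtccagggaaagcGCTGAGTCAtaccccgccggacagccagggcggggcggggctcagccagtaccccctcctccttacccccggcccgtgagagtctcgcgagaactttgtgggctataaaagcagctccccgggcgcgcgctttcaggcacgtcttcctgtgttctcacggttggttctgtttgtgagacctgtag

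Array medians lay between 7.99 and 8.07, and pairs of arrays correlated at r = 0.9852 to 0.9976 over the probe sets with a gene. Control 1 and control 2 had the narrowest value distributions, with interquartile ranges of 2.19 and 2.15 against 2.26 to 2.50 on the other 11 arrays. The brain markers Snap25, Gfap and Mbp were bright on every array (13.2 to 13.4, 9.69 to 11.2 and 11.3 to 12.2). The cerebellar markers Gabra6, Pcp2 and Cbln3 lay at 5.41 to 6.01, 7.03 to 7.55 and 7.49 to 7.90. Zic1 and Calb2, from the same list, reached higher, at 7.56 to 8.43 and 6.79 to 8.67. The deposited table held no detection calls, so the distance of dim signals from background is unknown, and precision is limited by how many arrays there were.

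Control 1 or control 2 carried the lowest value of 22 of the 33 members (66.7%), 11 on each of the pair, against 29.2% of all 15633 probe sets tested. Among probe sets brighter than the median mean signal of 8.04, they did so for 17 of 24 members (70.8%) and for 46.9% of all. Control 8 carried the highest value of 11 members and of 11.4% of all probe sets. Many of the results below are therefore also given without control 1 and control 2, or without control 8.

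No antioxidant or NRF2 gene differed between the brains of fructose and control offspring by limma, which tests each probe set against its spread between arrays. An adjusted p under 0.05 was reached by 0 of 33 members, and by 0% of all probe sets. An unadjusted p under 0.05 was reached by 0 of 33 members and by 2.23% of all probe sets, or 348 of them. The adjusted p from limma was 0.9998 for every member, and the smallest unadjusted p was 0.0639. The values of the fructose and control arrays overlapped for all 33 members.

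The intervals were narrow. The 95% interval of the fructose minus control difference lay within 1.2-fold in either direction for 27 of 33 members (81.8%, against 84.63% of all probe sets) and within 1.5-fold for all 33 (98.98% of all). The largest fold inside any member's interval was 1.28. The mean was higher in the fructose group for 20 members (60.6%, against 54.1% of all probe sets) and lower for 13, and the median difference was 0.0073 on the log2 scale, against 0.0056 over all probe sets. That direction turned with the arrays used: without control 1 and control 2, 11 of 33 members were higher in the fructose group, against 8035 of the 15633 probe sets.

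**Figure D1:**
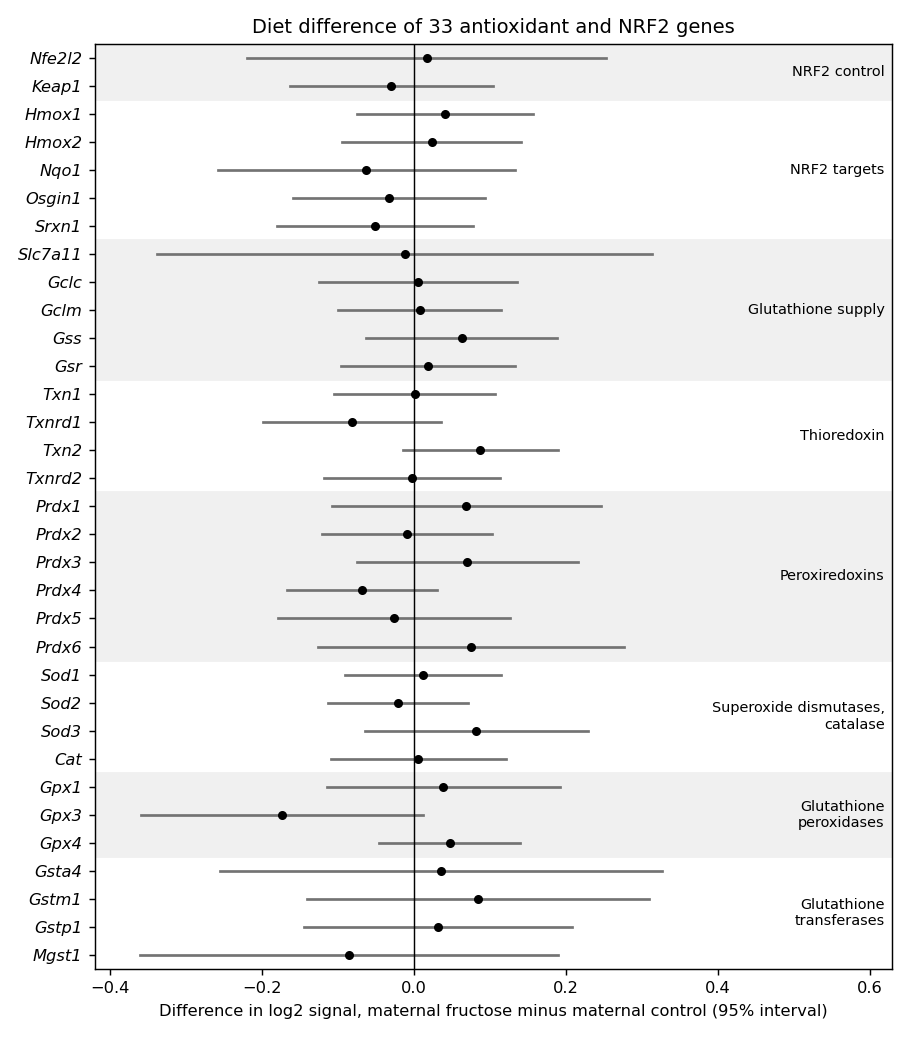
Difference in log2 signal between the brains of maternal fructose (n = 6) and maternal control offspring (n = 7) for the 33 measured genes, ordered by role, with 95% intervals from limma as grey lines. Every interval includes 0, and the widest belong to Slc7a11, Gsta4, Mgst1 and Nfe2l2.

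The transcription factor and its inhibitor come first. Nfe2l2 had a lowest value of 8.68, a median of 8.76 and a highest value of 9.09 in fructose brains, against 8.37, 8.79 and 9.20 in control brains. Both ends of the whole range were control arrays, control 1 at the bottom and control 8 at the top. The difference was 0.017 (95% interval -0.22 to 0.25), and the end of the interval farther from 0 was 1.19-fold. Without control 1 and control 2 the difference was -0.10.

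Keap1, which encodes the NRF2 inhibitor, ran over 9.15, 9.26 and 9.41 (lowest, median and highest) in fructose brains, against 9.16, 9.29 and 9.49 in control brains. The groups lay over each other nearly from end to end, with fructose 4 lowest and control 5 highest. The difference was -0.030 (-0.16 to 0.10).

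Among classical NRF2 targets, Nqo1 encodes the quinone reductase NQO1. It had a lowest, median and highest value of 7.25, 7.39 and 7.58 in fructose brains, against 7.09, 7.41 and 7.76 in control brains. The fructose arrays sat inside the control range, which control 2 opened and control 8 closed. The difference was -0.063 (-0.26 to 0.13).

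Hmox1, the inducible haem oxygenase, stood at 6.80, 6.90 and 7.05 in fructose brains, against 6.77, 6.89 and 7.05 in control brains. Both groups covered the same narrow span at a dim signal, and the difference was 0.041 (-0.075 to 0.16). Hmox2, the constitutive haem oxygenase, differed by 0.023 (-0.095 to 0.14), and Osgin1, an NRF2 target that restrains growth, by -0.033 (-0.16 to 0.093).

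Srxn1, sulfiredoxin, which repairs overoxidised peroxiredoxins, had values of 7.62, 7.68 and 7.77 in fructose brains, against 7.47, 7.75 and 7.90 in control brains. The fructose values again lay inside the control range, whose bottom was control 1. The difference was -0.052 (-0.18 to 0.077).

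**Figure D2:**
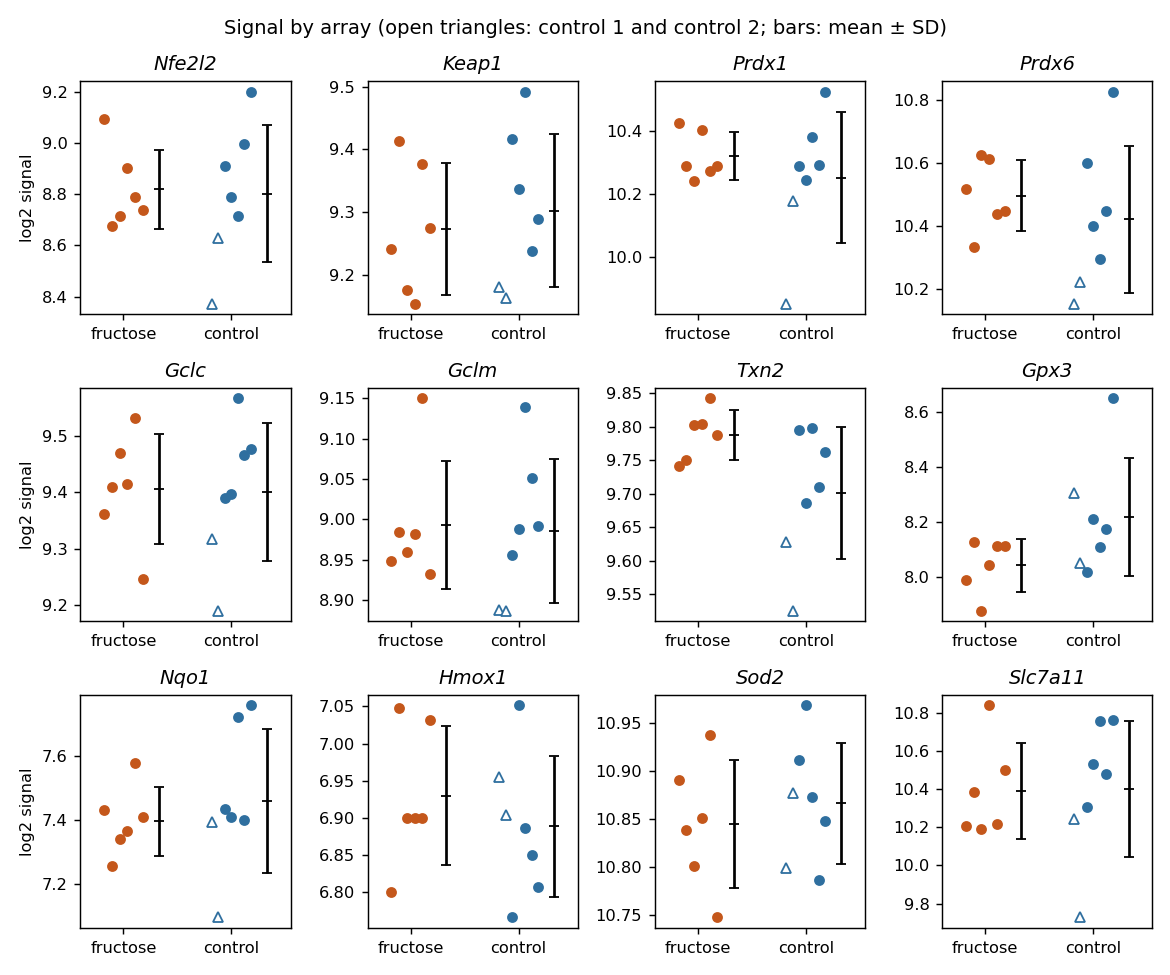
Log2 signal of 12 of the genes on each array, with fructose brains left (n = 6) and control brains right (n = 7) and black bars for the mean ± SD. Open triangles are control 1 and control 2, which hold the lowest values of Nfe2l2, Prdx1, Prdx6, Gclm and Txn2, and both groups overlap in every panel.

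Glutathione is made from cystine taken up by the SLC7A11 transporter, in a first step by glutamate-cysteine ligase, whose catalytic and modifier subunits are GCLC and GCLM, and a last step by glutathione synthetase, GSS. Gclc had a lowest, median and highest value of 9.25, 9.41 and 9.53 in fructose brains, against 9.19, 9.40 and 9.57 in control brains. The medians nearly coincided, and the difference was 0.0054 (-0.12 to 0.14).

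Gclm stood at 8.93, 8.97 and 9.15 in fructose brains, against 8.89, 8.99 and 9.14 in control brains. Fructose 7 stood apart at the top of its group and control 1 and control 2 were the lowest arrays. The difference was 0.0073 (-0.10 to 0.12), and -0.032 on the 11 other arrays.

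Gss had values of 7.58, 7.63 and 7.70 in fructose brains, against 7.41, 7.66 and 7.71 in control brains. All 6 fructose arrays were above the control mean, which 3 control arrays under 7.47 pulled below the control median. The difference was 0.063 (-0.063 to 0.19, exact 2-sided permutation p = 0.284), and 0.0073 with control 1 and control 2 left out.

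Slc7a11 differed by -0.012 (-0.34 to 0.31), the widest interval on the supply side, and Gsr, glutathione reductase, by 0.019 (-0.096 to 0.13). None of these 5 genes of glutathione supply therefore had a detectable difference between the diets at this number of arrays.

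Thioredoxin and its reductase exist as a cytosolic pair, TXN1 and TXNRD1, and a mitochondrial pair, TXN2 and TXNRD2. Txn2 had a lowest, median and highest value of 9.74, 9.80 and 9.84 in fructose brains, against 9.53, 9.71 and 9.80 in control brains. All 6 fructose arrays lay above the control mean, and the 2 lowest arrays were control 2 and control 1, at 9.53 and 9.63. The difference was 0.087 (-0.015 to 0.19), with the smallest exact 2-sided permutation p of any member, 0.0612 unadjusted. It was 0.038 without control 1 and control 2.

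Txnrd1 stood at 7.98, 8.10 and 8.14 in fructose brains, against 8.06, 8.14 and 8.40 in control brains. The 6 fructose arrays lay below the control mean, in a group where control 5 stood at 8.40 and the next array at 8.18. The difference was -0.081 (-0.20 to 0.036, exact 2-sided permutation p = 0.147), and -0.041 without control 5. It was -0.12 without control 1 and control 2.

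Txn1 had values of 12.32, 12.35 and 12.40 in fructose brains, against 12.26, 12.31 and 12.55 in control brains. The fructose arrays again sat inside the control range, which ran up to control 5. The difference was 0.00072 (-0.10 to 0.11), and that of Txnrd2 was -0.0028 (-0.12 to 0.11).

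Most peroxiredoxins reduce hydrogen peroxide with electrons from thioredoxin, whereas PRDX6 uses glutathione. Prdx1, of the cytosol, had a lowest, median and highest value of 10.24, 10.29 and 10.43 in fructose brains, against 9.85, 10.29 and 10.53 in control brains. Control 1 was far below the rest at 9.85, with control 2 next at 10.18. The difference was 0.069 (-0.11 to 0.25), and its other probe set gave 0.076. With control 1 and control 2 left out it was -0.026.

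Prdx6 had values of 10.33, 10.48 and 10.63 in fructose brains, against 10.15, 10.40 and 10.83 in control brains. The lowest 3 arrays were control 1, control 2 and control 5, and control 8 was the highest. The difference was 0.075 (-0.13 to 0.28), and -0.018 without control 1 and control 2.

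Prdx3, the mitochondrial peroxiredoxin served by TXN2, stood at 9.67, 9.78 and 9.93 in fructose brains, against 9.47, 9.74 and 9.89 in control brains. Control 1 and control 2 were again the lowest arrays. The difference was 0.070 (-0.076 to 0.22), and 0.0013 with that pair left out.

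Prdx4, of the endoplasmic reticulum, had values of 6.82, 7.03 and 7.08 in fructose brains, against 6.995, 7.04 and 7.14 in control brains. Only fructose 4 and fructose 1 lay below the lowest control array. The difference was -0.069 (-0.17 to 0.031, exact 2-sided permutation p = 0.119). Prdx2 differed by -0.0091 (-0.12 to 0.10) and Prdx5 by -0.026 (-0.18 to 0.13).

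Superoxide is turned to hydrogen peroxide by SOD1 in the cytosol, SOD2 in mitochondria and SOD3 outside cells, and catalase breaks the peroxide down. Sod1 had a lowest, median and highest value of 11.14, 11.18 and 11.28 in fructose brains, against 11.11, 11.14 and 11.32 in control brains. Its whole range over the 13 arrays was 1.16-fold, the smallest of the members, and the difference was 0.012 (-0.091 to 0.11).

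Sod2 stood at 10.75, 10.84 and 10.94 in fructose brains, against 10.79, 10.87 and 10.97 in control brains. The groups overlapped almost fully, with a difference of -0.022 (-0.11 to 0.071).

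Cat had values of 10.29, 10.37 and 10.46 in fructose brains, against 10.22, 10.37 and 10.49 in control brains. The medians nearly coincided, and control 1 and control 2 were the lowest arrays. The difference was 0.0058 (-0.11 to 0.12), and -0.046 with both left out.

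Sod3 had values of 8.69, 8.77 and 8.96 in fructose brains, against 8.46, 8.73 and 8.87 in control brains. Control 1 and control 2 lay below every other array. The difference was 0.082 (-0.065 to 0.23), and 0.00059 on the 11 other arrays.

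Glutathione peroxidases reduce peroxides with glutathione, GPX1 in cytosol and mitochondria, GPX3 as a secreted enzyme and GPX4 on membrane lipids. Gpx3 had the smallest unadjusted p of the members by limma (0.0639). It had a lowest, median and highest value of 7.88, 8.08 and 8.12 in fructose brains, against 8.02, 8.17 and 8.65 in control brains. All 6 fructose arrays lay below the control mean, and control 8 stood above every other array. The difference was -0.17 (-0.36 to 0.011), with an exact 2-sided permutation p of 0.0734 before any adjustment. Without control 8 it was -0.10.

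Gpx4 stood at 9.07, 9.09 and 9.22 in fructose brains, against 8.99, 9.04 and 9.19 in control brains. All 6 fructose arrays were above the control mean, and 2 control arrays reached into the upper part of their range. The difference was 0.047 (-0.046 to 0.14, exact 2-sided permutation p = 0.231).

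Gpx1 had values of 8.76, 8.80 and 8.94 in fructose brains, against 8.495, 8.75 and 9.06 in control brains. The control range enclosed the fructose arrays at both ends, control 1 below and control 8 above. The difference was 0.039 (-0.12 to 0.19).

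Glutathione transferases attach glutathione to electrophiles, GSTA4 with a preference for the lipid aldehyde 4-hydroxynonenal. Mgst1, the microsomal transferase, had a lowest, median and highest value of 7.66, 7.999 and 8.10 in fructose brains, against 7.65, 8.02 and 8.71 in control brains. The top of the control range was control 8 alone. The difference was -0.085 (-0.36 to 0.19), and 0.024 without control 8. Gstm1 differed by 0.085 (-0.14 to 0.31), Gsta4 by 0.036 (-0.26 to 0.33) and Gstp1 by 0.032 (-0.14 to 0.21), and the other probe set of Gsta4 gave 0.0074. On the 11 arrays other than control 1 and control 2, Gsta4 differed by -0.087.

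Members with the core of the antioxidant response element in their promoter window were set beside those without it. Of the 9 with the core 5 were higher in the fructose group, with a median difference of 0.0073. Of the 20 without it 11 were higher, with a median of 0.0031. No test was made of this split.

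The members also differed in how much they varied between arrays of the same group. The SD within groups, pooled over both diets, was largest for Slc7a11 at 0.31, followed by Gsta4 at 0.28, Mgst1 at 0.26, Nfe2l2 at 0.22 and Gstm1 at 0.21. These 5 were above the 90th percentile of all probe sets. Over the 13 arrays the signal of Gsta4 spanned 2.27-fold, that of Slc7a11 2.16-fold, that of Mgst1 2.08-fold and that of Nfe2l2 1.77-fold. The other probe set of Gsta4 correlated with the one used at r = 0.67, and that of Prdx1 at r = 0.997. Spread and slopes of Gsta4 are those of its brighter probe set. At the other end, Sod2 had an SD of 0.064 and Gpx4 of 0.065. The median SD was 0.11 over the members and 0.11 over all probe sets, and 14 of 33 members were above that of all probe sets.

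**Figure D3:**
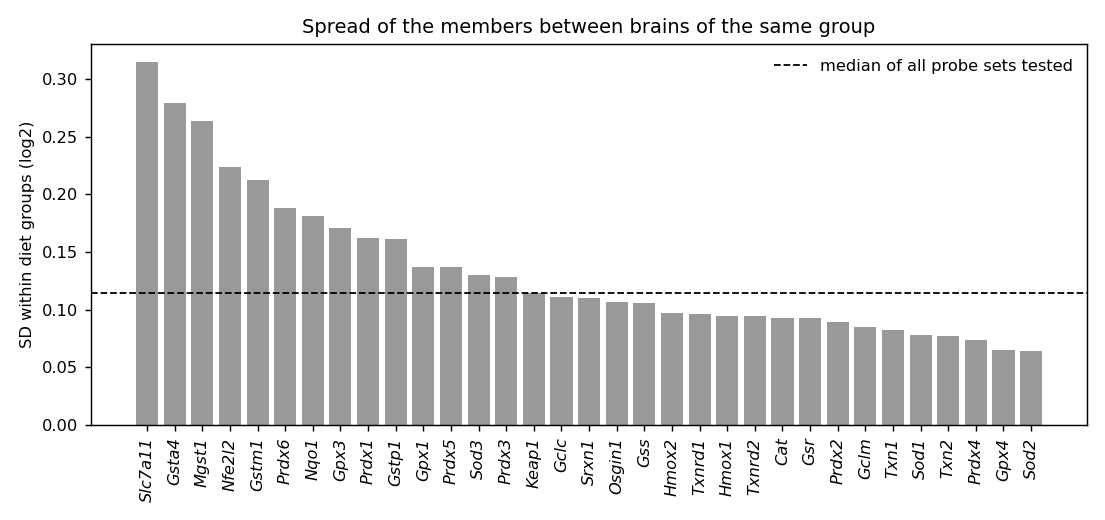
SD of the log2 signal between arrays of the same maternal diet group, pooled over both groups, for the 33 measured genes in falling order. The dashed line is the median of all probe sets tested, and the bars run from 0.31 for Slc7a11 to 0.064 for Sod2.

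This spread was smaller in the fructose group. The SD was lower in fructose than in control brains for 31 of 33 members (93.9%), against 70.8% of all probe sets. The median SD of the members was 0.0907 in fructose brains and 0.137 in control brains, and over all probe sets it was 0.0903 in fructose brains and 0.124 in control brains. Without control 1 and control 2 the count was 25 of 33, against 58.9% of all probe sets, and the median SD of the members in control brains was 0.112. These are descriptions, with no test of the difference in spread.

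The next question was which signals of the tissue the members followed from array to array. For each array the mean log2 signal of a list of cell type markers was taken, and the slope of every probe set on that mean was fitted with limma beside a diet term. A slope of 1 means that the gene moved by the same log2 amount as the marker mean. In whole tissue, fewer cells of a type and less RNA per cell cannot be told apart.

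Over all 13 arrays astrocyte markers were followed by more members than any other marker list. The mean of the 11 measured markers was 10.33 ± 0.057 in fructose brains (SD, n = 6) and 10.28 ± 0.17 in control brains (SD, n = 7), with an exact 2-sided permutation p of 0.457 for the difference. It was lowest on control 1 (10.04) and control 2 (10.09) and highest on control 8 (10.51). Of the 33 members 13 (39.4%) had a positive slope past an adjusted p of 0.05 and 0 a negative one, against 15.6% of all probe sets past that threshold in either direction. They were Prdx1, Prdx3, Cat, Sod3, Nqo1, Nfe2l2, Prdx6, Gsta4, Slc7a11, Txn2, Gss, Gpx1 and Mgst1. The median slope was 0.49 over the members and 0.049 over all probe sets. Of the 33 members 24 were brighter than the median mean signal of 8.04. Shares and slopes among probe sets of like brightness were not computed for this or the later marker lists. These contrasts therefore cannot be read as particular to the members.

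Prdx1 had a slope of 1.09 ± 0.20 (SE, adjusted p = 0.00923 by limma) and correlated with the astrocyte mean at r = 0.87 (Spearman's rho 0.78), or 0.69 without the 2 arrays farthest from the median of that mean. Prdx3 had a slope of 0.87 ± 0.17 (adjusted p = 0.0111 by limma), with r = 0.87 and rho = 0.92. Cat had the highest correlation, at r = 0.91 and rho = 0.90 (slope 0.65 ± 0.14), and kept r = 0.86 without those 2 arrays. Adjusted permutation p-values over all probe sets were 0.0092, 0.0092 and 0.0069 for these 3 correlations and 0.042, 0.015 and 0.017 for the rank correlations.

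Sod3 had a slope of 0.83 ± 0.19 (r = 0.83, rho = 0.77) and Nqo1 of 1.11 ± 0.26 (r = 0.79, rho = 0.86). Nfe2l2 itself had a slope of 1.32 ± 0.32 (r = 0.76, rho = 0.68), but r was 0.40 without the 2 farthest arrays. Prdx6 was similar, with a slope of 1.09 ± 0.28, r = 0.75, rho = 0.59, and r = 0.42 without them, so for these last 2 genes much of the correlation rested on those arrays. Gsta4 had the steepest slope of these 8, 1.52 ± 0.43 (r = 0.71, rho = 0.63). Adjusted permutation p-values for r were 0.0137, 0.023, 0.0292, 0.0293 and 0.0531 for these 5 genes, and for rho 0.0478, 0.0215, 0.0891, 0.143 and 0.115.

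Calls on the astrocyte mean depended on single arrays. With control 1 and control 2 left out, 0 members and 0 probe sets passed the adjusted threshold, and 6 members (1484 probe sets) had an unadjusted p under 0.05. Microglia markers then had 8 members at that level (1723 probe sets). The astrocyte slopes themselves stayed near their values for Prdx1 (0.91 ± 0.30), Prdx3 (0.91 ± 0.30), Cat (0.72 ± 0.26) and Prdx6 (1.06 ± 0.54), and were larger for Nqo1 (1.46 ± 0.37) and Mgst1 (2.26 ± 0.67). Those of Sod3 (0.55 ± 0.34) and Txn2 (0.30 ± 0.25) were smaller. Leaving out only control 1 gave 3 members (9.09%), against 2.09% of all probe sets. Leaving out only control 2 gave 3 members, against 4.35%, and only control 8 gave 4 (12.1%), against 8.92%. After renewed quantile normalization 1 member passed (3.03%), against 2.44% of all probe sets, and with the replicate number as a block 0 members and 0 probe sets did.

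The astrocyte mean also moved with the interquartile range of the array (r = 0.863, rho = 0.83, adjusted permutation p = 0.00232 over 8 such relations; r = 0.70 without the 2 farthest arrays). The slope on that range was past the threshold, and positive, for 10 members (30.3%), against 24.3% of all probe sets in either direction. Without control 1 and control 2 it was past the threshold for 0 members. The range was taken over the same 15633 probe sets that were fitted on it, so range and slopes are not independent. These 10 members were Hmox2, Nqo1, Gclc, Gclm, Gsr, Txn2, Prdx1, Prdx3, Sod3 and Cat. With the range as a further term 0 members passed on the astrocyte mean, and 6 had an unadjusted p under 0.05, against 1347 probe sets (8.62%). In the microglia fit with this term 8 members reached that level, 6 of them with a positive slope, against 10.6% of all probe sets. The median astrocyte slope of the members was 0.59 with the term. It was 1.28 ± 0.40 for Prdx1, 1.54 ± 0.56 for Prdx6, 1.68 ± 0.65 for Nfe2l2 and 0.79 ± 0.34 for Prdx3, and smaller for Nqo1 (0.61 ± 0.50) and Txn2 (0.094 ± 0.26). The interquartile range is a property of the array, and the part of it in the astrocyte relation was not tested beyond these fits.

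**Figure D4:**
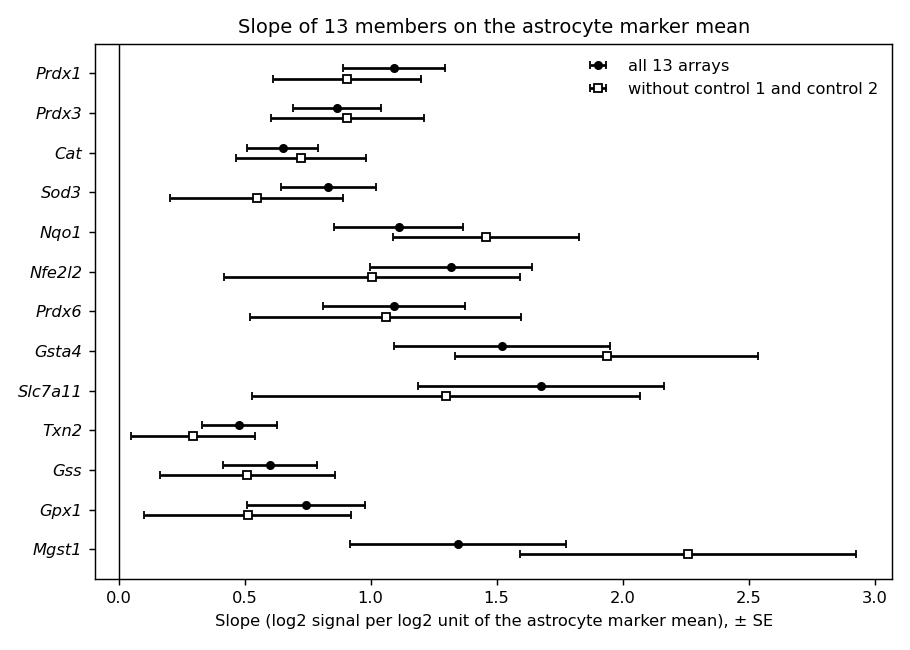
Slope of log2 signal on the mean of 11 astrocyte markers, ± SE, for the 13 genes past the adjusted threshold, with all 13 arrays (filled circles) and without control 1 and control 2 (open squares). Every slope is above 0 in both fits, with wider errors in the smaller set of arrays.

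Microglia markers were followed by 9 members, all with a positive slope (27.3%, against 10.2% of all probe sets in either direction). The mean of the 12 measured markers was 8.497 ± 0.022 in fructose brains (SD, n = 6) and 8.52 ± 0.15 in control brains (SD, n = 7), lowest on control 2 (8.32) and control 1 (8.36) and highest on control 8 (8.75). Gsta4 had a slope of 2.03 ± 0.44 (adjusted p = 0.0173), Prdx6 of 1.39 ± 0.30 (0.0178), Nfe2l2 of 1.60 ± 0.37 (0.0208) and Gstm1 of 1.47 ± 0.37 (0.0271), all by limma. Mgst1, Prdx1, Gpx1 and Sod3 had slopes of 1.75, 1.11, 0.94 and 0.89, and Nqo1 also passed.

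For the first 4 of these genes r was 0.80, 0.81, 0.79 and 0.76 and rho was 0.48, 0.65, 0.64 and 0.75. Adjusted permutation p-values for r were 0.0506, 0.0248, 0.0371 and 0.0306, and those for rho were 0.29, 0.16, 0.166 and 0.114. The correlation of Gsta4 fell to r = 0.15 without the 2 arrays farthest from the median, and that of Mgst1 was -0.041 there, against 0.73 over all arrays. Without control 8 alone 0 members passed, against 3.01% of all probe sets. Without control 1 alone 2 members did (6.06%, against 1.54%), and without control 2 alone 4 (12.1%, against 1.98%). With both narrow arrays, control 1 and control 2, left out 0 members passed, against 5 of 15633 probe sets, with slopes of 2.74 ± 0.67 for Gsta4 and 2.57 ± 0.64 for Gstm1, and smaller ones for Prdx1 (0.84 ± 0.44) and Sod3 (0.37 ± 0.47). The microglia mean too moved with the interquartile range of the array (r = 0.786, rho = 0.73, adjusted permutation p = 0.00688).

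The level of Nfe2l2 was set against the other 32 members in the same way. Prdx1 alone passed, with a slope of 0.63 ± 0.12 (adjusted p = 0.0497 by limma), which is 3.12% of the members, against 0.493% of all probe sets. It correlated with Nfe2l2 at r = 0.87 (adjusted permutation p = 0.0521) and rho = 0.78 (0.158), with r = 0.63 without the 2 farthest arrays. Prdx6 (slope 0.68 ± 0.15, adjusted p = 0.0594) and Gpx1 (0.49 ± 0.12, adjusted p = 0.0698) came next by limma. An unadjusted p under 0.05 was reached by 11 of the 32 (9 with a positive slope), against 20.6% of all probe sets. Among classical target genes, Nqo1, Gclc, Gclm, Srxn1 and Txnrd1 had an unadjusted p over 0.05, and Hmox1 had a negative slope of -0.26 ± 0.11 (adjusted p = 0.212 by limma).

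Keeping Prdx1 past the threshold needed all arrays but control 5 or fructose 1. Leaving out control 5 gave 3 members (9.38%), against 3.37% of all probe sets, and leaving out fructose 1 gave 4 (12.5%), against 3.31%, whereas leaving out any other single array gave 0. On the 11 arrays other than control 1 and control 2 the slope of Prdx1 was 0.40 ± 0.15 and 0 members and 0 probe sets passed.

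Markers of the meninges and fibroblasts, the cells of the brain's coverings, varied most between arrays, from 7.28 on control 5 to 8.48 on fructose 4. Their mean was 7.80 ± 0.40 in fructose brains (SD, n = 6) and 7.73 ± 0.46 in control brains (SD, n = 7). The adjusted threshold was passed by 0 members, against 0.71% of all probe sets, and an unadjusted p under 0.05 was reached by 7 members, against 11.6% of all probe sets. Gsta4 was closest, with a slope of 0.50 ± 0.12 (adjusted p = 0.0834 by limma), and 0.41 ± 0.093 without control 1 and control 2. Prdx6, Nfe2l2, Gpx1, Gstm1 and Slc7a11 had slopes of 0.31, 0.36, 0.23, 0.31 and 0.40, and Prdx5 of -0.18. Without fructose 3 the adjusted threshold was passed by 3 members (9.09%), against 2.17% of all probe sets, and without control 5 by 1 (3.03%), against 0.678%.

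The other cell types gave 0 members past the adjusted threshold, against 0.339% of all probe sets for oligodendrocyte markers, 0% for neuron markers, 0.0064% for endothelial and mural markers and 0% for choroid plexus markers. At an unadjusted p under 0.05 there was 1 member for oligodendrocytes, against 4.6% of all probe sets. It was Gstp1, a transferase known from oligodendrocytes, with a slope of 0.45 ± 0.11 (adjusted p = 0.187 by limma). Without control 5 the adjusted threshold was passed by 1 member (3.03%), against 0.281% of all probe sets. Neuron markers had 3 of 33 members at that unadjusted level, no larger a share than the 10.6% of all probe sets. They were Keap1, Prdx5 and Txnrd1, with slopes of 1.80 ± 0.51, 1.92 ± 0.62 and 1.30 ± 0.50, and adjusted p-values of 0.265, 0.317 and 0.386 by limma.

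Endothelial and mural markers had 5 members at an unadjusted p under 0.05 (Sod3, Gpx1, Nfe2l2, Prdx1 and Srxn1, all with positive slopes of 0.85 to 1.69) and choroid plexus markers also 5, all negative, from -0.48 to -0.64 (Hmox2, Gclc, Gclm, Prdx5 and Txnrd1). The corresponding shares of all probe sets were 6.93% and 10.7%. By limma the smallest adjusted p among the members was 0.627 for endothelial and mural markers and 0.325 for choroid plexus markers.

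Pairs of genes whose products work together were compared directly, as correlations of their deviations from the group means over the 13 arrays, in 12 pairs. Of these 9 were positive and 2 passed an adjusted permutation p of 0.05. The shares over other pairs of genes were not computed, so these counts cannot be read as particular to partner genes. The subunits of glutamate-cysteine ligase were the closest, with r = 0.85 for Gclc and Gclm (adjusted permutation p = 0.00528) and rho = 0.91 (adjusted permutation p = 0.00042). The value was r = 0.80 without the 2 arrays farthest from the median and r = 0.80 without control 1 and control 2 (adjusted permutation p = 0.017). Control 5 and fructose 7 were high for both genes and control 1, control 2 and fructose 8 were low for both.

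Txn2 and Prdx3, the mitochondrial thioredoxin and the peroxiredoxin it reduces, gave r = 0.72 (adjusted permutation p = 0.0341) and rho = 0.90 (0.00024). Without control 1 and control 2 the value was r = 0.75, with an adjusted permutation p of 0.0691 over the 11 remaining arrays. Both genes were also among those that followed the astrocyte mean. Gclc, Gclm, Txn2 and Prdx3 were all among the 10 members whose slope on the interquartile range of the array was past the threshold. The part of that range in the correlations of these pairs was not tested.

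**Figure D5:**
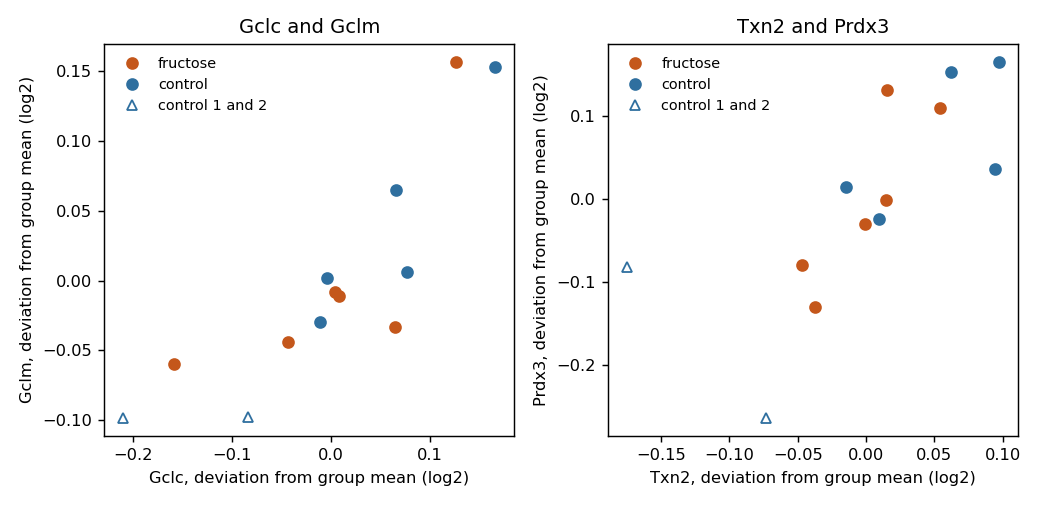
Deviation of log2 signal from the group mean for Gclc and Gclm (left) and for Txn2 and Prdx3 (right) on 13 arrays, with fructose brains in orange, control brains in blue and control 1 and control 2 as open triangles. Points rise together in both panels, with r = 0.85 on the left and r = 0.72 on the right.

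The remaining 10 pairs did not pass. Prdx1 and Srxn1 had r = 0.61 over all arrays (adjusted permutation p = 0.133) and -0.34 without control 1 and control 2. Gss and Gsr had r = 0.57 and Gclc and Slc7a11 r = 0.54, which was 0.020 without that pair of arrays. Txn1 and Txnrd1 had r = 0.54 but rho = 0.15, and r = -0.33 without the 2 farthest arrays, of which control 5 was highest for both genes. Nfe2l2 and Keap1 had r = 0.081, and -0.53 without control 1 and control 2 (adjusted permutation p = 0.372). Sod2 and Prdx3, Gpx1 and Gsr, Sod1 and Cat, Hmox1 and Nqo1, and Txn2 and Txnrd2 had r = 0.34, 0.35, -0.060, -0.32 and -0.31.

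The wider pathway was read from 7 further lists with 96 measured genes. By limma 0 of them passed the adjusted threshold for diet, and 0 had an unadjusted p under 0.05. The mean was higher in the fructose group for 62 of the 96, with a median difference of 0.025, against 54.1% and 0.0056 for all probe sets. On the 11 arrays other than control 1 and control 2 it was higher for 49 of the 96, with a median of 0.0028, against 51.4% and 0.0022 for all probe sets. On those arrays 0 passed the adjusted threshold and 2 had an unadjusted p under 0.05 by limma, Gsk3b at 0.13 ± 0.041 and Nos3 at 0.081 ± 0.037 (SE), against 717 of the 15633 probe sets. Of the genes named below, the differences of Mafg (0.0041), Idh2 (-0.034), Nnt (-0.017), Ftl1 (-0.047) and Cyba (0.017) had the opposite sign there.

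Among regulators of NRF2, 7 of 12 were higher in the fructose group. Gsk3b and Btrc, a kinase and a ligase subunit of the KEAP1-independent route of NRF2 degradation, were 0.095 ± 0.045 and 0.086 ± 0.043 (SE) higher, with 11.29 against 11.20 and 10.27 against 10.19 for fructose and control means. Bach1, a repressor at antioxidant response elements, differed by -0.062 and Mafg, a small MAF partner, by -0.028. Their unadjusted p-values from limma began at 0.0538. With control 1 and control 2 left out 8 of the 12 were higher.

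Genes of NADPH supply, which fuels both the glutathione and the thioredoxin reductases, were higher in 2 of 6 cases, Idh2 (0.075) and Nnt (0.049), both of mitochondria, and Taldo1 and Idh1 differed by -0.074 and -0.027. All 6 iron and haem genes had the higher mean in fructose brains, with a median difference of 0.026, with the ferritin chains Ftl1 and Fth1 at 0.052 and 0.024. With control 1 and control 2 left out 0 of the 6 NADPH genes and 2 of the 6 iron and haem genes were higher. Other glutathione enzymes were higher for 15 of 25 (13 of 25 on those 11 arrays), with the transferase Gstm4 at 0.097, Ggt7 at 0.077, Gstk1 at -0.10 and Chac2, which degrades glutathione, at -0.088.

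Other thiol and peroxide enzymes were higher for 15 of 19, with a median of 0.038, and for 9 of 19, with a median of -0.0013, when control 1 and control 2 were left out. The selenoprotein Selenow differed by 0.12, the metallothionein Mt2A by 0.10, the sestrin Sesn3 by -0.083 and the methionine sulfoxide reductase Msrb2 by -0.049. Quinone, aldehyde and conjugating enzymes were higher for 7 of 13 (6 of 13 on the 11 other arrays), with Nqo2 at 0.12, the haem transporter Slc48a1 at 0.11, Aldh3a1 at -0.051 and Cbr3 at -0.042.

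Sources of oxidants were higher for 10 of 15 genes, and for 11 of 15 with control 1 and control 2 left out. The nitric oxide synthases Nos3 and Nos1 differed by 0.040 and -0.15, the dual oxidase Duox1 by 0.038 and the NADPH oxidase subunit Cyba by -0.045. Nos1, the neuronal enzyme, was the most variable of these, at 8.32 ± 0.27 in fructose brains (SD, n = 6) and 8.46 ± 0.43 in control brains (SD, n = 7).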

How the data were processed

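Total RNA of 13 samples of rat brain without cerebellum was labelled from 100 ng per sample, per the labels, and hybridised to 1-colour Affymetrix arrays. The authors deposited log2 values. Per the submitters' processing notes, these came from RMA, with R 3.0.1. The annotation build is not given in the sources used here. RMA corrects background, equalises distributions and combines probes, and removes array-wide shifts that were real. Of 29214 probe sets, 15310 had 1 gene in the platform annotation and 323 several.

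The 15633 probe sets with a gene were tested without a filter on dim signals with lmFit and eBayes of limma 3.58.1 (R 4.3.3), as fructose minus control, with Benjamini-Hochberg adjustment over all of them at 0.05. Exact permutation tests used all 1716 splits of the arrays. Slopes had a diet term. Correlations used deviations from group means and 100000 permutations, in Python 3.11.15 with scipy 1.17.1. Scripts were tested on simulated data. Groups came from the diet in the labels.

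The members and lists were chosen with earlier results of these data known. Named in full, whatever their value, were 15 members, then the 4 others in each direction with the smallest unadjusted p for diet. Up to 8 members past the threshold of a relation, and up to 2 genes in each direction of a pathway list, were given by smallest p. Alternatives were renewed quantile normalization, array centring and weights, a filter, an intensity trend, other probe sets, a replicate block and arrays left out. The interquartile range as a term, the relation to it, and the pathway lists without control 1 and control 2 were added after seeing the data.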

Additional observations from a re-analysis of the deposited data

Results flagged for a closer look

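In 8 of the 66 groups of values tested (33 genes in each diet group), 1 array stood apart from the others by Dixon's criterion. By chance this criterion flags about 5% of groups of independent, normally distributed values. The share over all probe sets was not computed, so the count cannot be read as particular to these genes. In fructose brains, Gpx1 and Gpx4 were highest on fructose 8, at 8.9429 and 9.2249, with the next arrays at 8.82 and 9.10, and Mgst1 was lowest on the same array, at 7.6592, with the next at 7.95. Gclm was highest on fructose 7, at 9.1498 against 8.98 for the next array, Gsta4 on fructose 4, at 8.2564 against 7.96, and Gstp1 on fructose 1, at 10.1511 against 9.85. In control brains, Hmox2 and Txnrd1 were highest on control 5, at 8.8354 and 8.4047, with the next arrays at 8.63 and 8.18. Neither control 1 nor control 2 was among these arrays.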

How the results depend on the processing

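For diet, 0 members passed the adjusted threshold in any setting run, with a smallest adjusted p of 0.9525 by limma. The sign of 13 members held in all 21 settings and that of 20 turned in at least 1, and the cause was not tested. Without control 1 and control 2, 11 members were higher, and these turned: Nfe2l2 -0.103, Hmox2 -0.00461, Gclc -0.0533, Gclm -0.032, Gsr -0.0213, Txn1 -0.0317, Txnrd2 0.0403, Prdx1 -0.0258, Prdx6 -0.018, Cat -0.046, Gpx1 -0.0303, Gsta4 -0.0866 and Osgin1 0.0201. With the interquartile range as a further term these turned: Nfe2l2 -0.0196, Gclc -0.0218, Gclm -0.0109, Gsr -0.000114, Txn1 -0.0137, Txnrd2 0.00735, Cat -0.0153 and Gsta4 -0.011. Renewed quantile normalization turned Gclc -0.0189, Gclm -0.0153, Txn1 -0.016, Sod1 -0.0179 and Cat -0.0225, and array weights Nfe2l2 -0.00125, Gclc -0.00348, Gclm -0.00325 and Gsta4 -0.000942.

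Replicate numbers did not pair the samples: same-numbered arrays correlated at -0.3354 to 0.1868, with 1 of 6 over 0.1 and 0 best with their own number. With the replicate number as a block, 0 members passed for diet, and these turned: Keap1 0.00196, Slc7a11 0.0471, Txnrd2 0.000298, Prdx2 0.0125 and Prdx5 0.0268. The block leaves control 5 without a partner, so these equal the values without it.

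With 1 array left out, differences ranged from -0.0547 to 0.0831 for Nfe2l2, -0.0579 to 0.00196 for Keap1, -0.0296 to 0.0371 for Gclc, -0.0241 to 0.0328 for Gclm, -0.00407 to 0.0525 for Gsr, -0.125 to 0.0474 for Slc7a11, -0.0152 to 0.0334 for Txn1, -0.0343 to 0.0209 for Txnrd2, -0.0316 to 0.0139 for Prdx2, -0.0516 to 0.0268 for Prdx5, -0.00458 to 0.0326 for Sod1, -0.0187 to 0.0265 for Cat, -0.00831 to 0.0855 for Gpx1, -0.0624 to 0.134 for Gsta4, -0.0248 to 0.0687 for Gstp1 and -0.151 to 0.0245 for Mgst1. Counts of members past the threshold ranged from 3 to 13 for astrocyte markers (327 to 2750 of all probe sets), 0 to 10 for microglia (240 to 2067), 0 to 4 for the Nfe2l2 level (0 to 527), 0 to 3 for meninges (52 to 339) and 0 to 1 for oligodendrocytes (24 to 54). The first 3 of these counts were 1, 1 and 0 after renewed quantile normalization, 0, 0 and 0 with the replicate block, with the interquartile range as a term and without control 1 and control 2, and the Nfe2l2 count was 2 without a diet term. Without control 1 and control 2 the count for the interquartile range was 0 and that of partner pairs 1, and the correlations of Txn2 and Txnrd2 (0.412), Prdx1 and Srxn1 (-0.344), Sod1 and Cat (0.183) and Nfe2l2 and Keap1 (-0.534) turned.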
